A study of Mus musculus with 10 samples.

Results

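The comparison described here sets FoxO1 siRNA against scramble siRNA in mouse renal proximal tubule cells that received both H2O2 and Wnt3a. Its members are the genes of the table of all genes that reached 1 FPKM (fragments per kilobase of transcript, scaled to the mapped fragments of a library) in library 7 or 8 and had a value above 0 in both. This rule kept 11912 of 46509 rows. Another 94 rows reached 1 FPKM but were listed at 0 in 1 library, 50 of them with scramble siRNA and 44 with FoxO1 siRNA. Gapdh, which every cell uses, was among these, at 0 in the scramble library and 931 FPKM in the other, so a listed 0 can be a failed estimate and these rows were left out. The member nearest to the minimum was Hist1h1d, at 1.00 and 0.835 FPKM.

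FoxO1 is a forkhead transcription factor that insulin and growth factor signalling, through PI3K and AKT, keeps out of the nucleus, and that oxidative stress and nutrient lack send into it. Its known targets include antioxidant enzymes, cell cycle inhibitors, regulators of apoptosis and autophagy, and genes of glucose production. FoxO factors also bind beta-catenin, the effector of Wnt ligands such as Wnt3a, and so link Wnt signalling to the response to peroxide. The proximal tubule is the part of the nephron that reabsorbs most of the filtered solutes.

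The study made RNA-seq libraries from 10 groups of 1 library each. All came from conditionally immortalized proximal tubule cells of mixed-strain mice, in which FVB animals (N2) carrying floxed TbRII were crossed with the Immorto-mouse. Cells were transfected at 33 °C and moved to 37 °C, where interferon gamma, which keeps the immortalizing antigen on, was withdrawn. Library 7 received scramble siRNA and library 8 received siRNA to FoxO1, and both had 100 uM H2O2 and 20 ng/mL Wnt3a. Libraries 9 and 10 had the same H2O2 and Wnt3a, with siRNA to FoxO3 per the label in library 9 and siRNA to both factors in library 10. Libraries 10 and 9 thus form a second pair that differs by FoxO1 siRNA and shares no library with the first. Whether a Cre was ever given to the floxed cells, whether they were 1 clone, and how long they were kept at each temperature is not given in the sources used here.

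With 1 library a side there is no replicate error, no test was made, and a difference between the 2 libraries cannot be told apart from the spread between cultures. Each difference is given as log2((library 8 + 1)/(library 7 + 1)) of FPKM, which understates the change of weak genes. The median of this ratio over the members was -0.01, the middle 90% of members lay between -0.29 and 0.30, and 98.1% lay within 0.58 of 0, which is about 1.5-fold. The ratio was 0.58 or more in 123 members (1.03%) and -0.58 or less in 105 (0.881%). It was 1 or more in 27 members (0.227%) and -1 or less in 22 (0.185%). In the authors' deposited table, 0 of 13302 tested genes had a q-value at or under 0.05, the smallest q-value was 0.133, and 164 genes had an unadjusted p-value under 0.05.

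Most of the genes past 0.58 were weakly expressed. Of these 228 genes, 170 had a mean under 5 FPKM, where 6.27% of 2713 members passed 0.58, against 0.209% of the 2871 members with a mean between 20 and 50 FPKM. Protein-coding genes made up 91.7% of all members but 41.5% of those that were higher and 42.9% of those that were lower. Pseudogenes, at 3.26% of all members, made up 27.6% of the higher and 25.7% of the lower genes, and small RNA genes, at 0.269% of all members, made up 8.94% and 8.57%. The most extreme ratios were those of a small RNA gene, Gm24967, at 24.4 and 187 FPKM, and of the small nucleolar RNA gene Snord15b, at 9.55 and 0.397 FPKM. The genes described below were therefore ranked among 8883 members with 5 FPKM or more in at least 1 library and with 1 symbol that is not of a predicted, small RNA, histone or mitochondrial gene. In that ranking 21 genes (0.236%) were higher by 0.58 or more and 15 (0.169%) were lower.

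**Figure D1:**
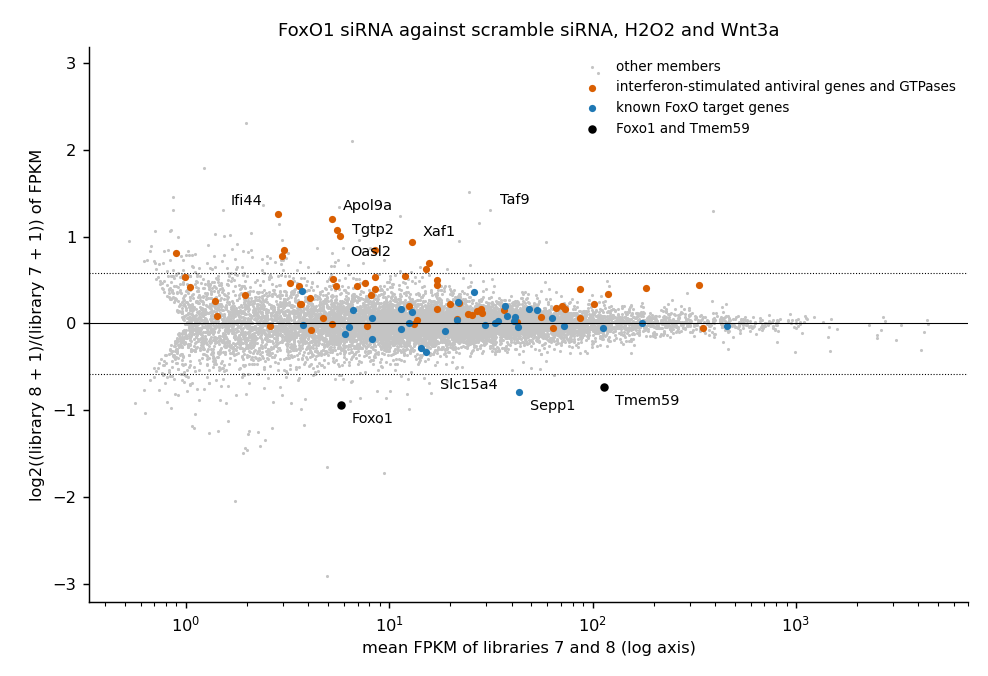
Each point is 1 of the 11912 members. The x axis is the mean FPKM of libraries 7 and 8 (log axis) and the y axis is the log2 ratio of library 8 (FoxO1 siRNA) over library 7 (scramble siRNA), with dotted lines at 0.58 either way. The scatter narrows with level, the interferon-stimulated genes and GTPases (orange) lie mostly above 0, and of the known FoxO target genes (blue) only Sepp1 lies past a dotted line.

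Foxo1, the targeted gene (chr3:52268336-52353221, mm10, plus strand), measured 7.92 FPKM with scramble siRNA and 3.66 with FoxO1 siRNA. The FoxO1 siRNA library thus held 46.2% of the scramble level, a log2 ratio of -0.94, the lowest in the ranking. On the scale of the first pair, Foxo1 measured 8.52 FPKM in library 9 and 4.66 in library 10, so both libraries with FoxO1 siRNA lay below both without it. The paralog Foxo3 measured 19.7, 17.7, 19.9 and 17.3 FPKM in libraries 7, 8, 9 and 10. Foxo3 in library 9, labelled as FoxO3 siRNA, was thus not below the scramble library, and its 17.3 FPKM in library 10, labelled as siRNA to both factors, was close to the 17.7 of library 8, which had none to FoxO3. Both libraries are therefore called by their labels only. Foxo4 measured 4.94 and 4.73 FPKM in libraries 7 and 8, and Foxo6 stayed under 1 FPKM at 0.394 and 0.323. Of Foxo1's exonic bases in the annotation, 7.78% are shared with Gm20402 on the opposite strand, which was listed at 0 in both libraries.

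Markers of other cell types were partly present. None of 14 distal nephron and 9 endothelial markers reached 1 FPKM, and of 10 leukocyte markers Cd68 and Csf1r did, at 5.88 and 1.80 FPKM in library 7 and 5.52 and 1.68 in library 8. Of 6 podocyte markers Synpo (28.2 and 21.5 FPKM) and Wt1 (4.21 and 3.97) did, and of 9 fibroblast and pericyte markers Fbln1 (6.17 and 6.23). Their part in the results was not tested. Of 35 proximal tubule markers, 10 reached 1 FPKM, among them the transcription factor genes Pax8 (101 and 104 FPKM in libraries 7 and 8) and Pax2 (48.7 and 52.7), the endocytic receptor gene Lrp2 (14.0 and 12.4) and the water channel gene Aqp1 (14.3 and 18.1). The mature segment markers Slc34a3, Slc22a6 and Hnf4a were listed at 0 in both libraries. In bulk RNA, fewer cells of a type and less RNA per cell cannot be told apart.

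Of 40 gene lists, that of interferon-stimulated antiviral genes had the most members past 0.58. Type I interferons act through a receptor and the kinases Jak1 and Tyk2 on a complex that includes Stat2 and Irf9 and binds a DNA element in the promoters of antiviral genes. In the list of interferon-stimulated antiviral genes, 49 of 62 were members. Of these, 9 were higher by 0.58 or more and 0 were lower, against 1.03% and 0.881% of all members. The median ratio of these 49 was 0.25, against -0.01 over all members, and 43 of the 49 were above 0, against 48.1% of all members. Among the 9, Ifi44, Rsad2, Mx2 and Apol9b stayed under 5 FPKM in both libraries. Of all members with a mean under 5 FPKM, 6.27% passed 0.58 either way. In the list of interferon-inducible GTPases, which act on the vacuoles of intracellular microbes, 2 of 13 members were higher, 0 were lower, and the median was 0.40.

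The 250 bases before the start of 7 of these genes are shown. They hold, or lack, a match to GAAANNGAAA, a form of the element that the interferon complex binds. Each is from RefSeq, build GRCm38.p6, read 5′ to 3′ along the gene, and capitals mark each match to GAAANNGAAA on either strand, with overlapping matches run together. The windows are chr15:77411081-77411330 (minus strand) for Apol9a, chr15:77728822-77729071 (plus) for Apol9b, chr4:156200819-156201068 (minus) for Isg15, chr12:26456453-26456702 (minus) for Rsad2, chr11:48992247-48992496 (minus) for Tgtp1, chr11:49064213-49064462 (minus) for Tgtp2 and chr5:114896684-114896933 (plus) for Oasl2.
Apol9a: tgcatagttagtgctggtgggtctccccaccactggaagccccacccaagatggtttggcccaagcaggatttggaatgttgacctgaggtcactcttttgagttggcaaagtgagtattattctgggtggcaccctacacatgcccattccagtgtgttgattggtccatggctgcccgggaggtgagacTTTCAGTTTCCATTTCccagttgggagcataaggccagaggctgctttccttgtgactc
Apol9b: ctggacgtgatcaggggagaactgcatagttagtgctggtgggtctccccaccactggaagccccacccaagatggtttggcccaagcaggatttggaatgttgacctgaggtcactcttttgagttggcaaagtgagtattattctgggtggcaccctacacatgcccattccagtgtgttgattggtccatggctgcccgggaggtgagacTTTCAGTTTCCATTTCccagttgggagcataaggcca
Isg15: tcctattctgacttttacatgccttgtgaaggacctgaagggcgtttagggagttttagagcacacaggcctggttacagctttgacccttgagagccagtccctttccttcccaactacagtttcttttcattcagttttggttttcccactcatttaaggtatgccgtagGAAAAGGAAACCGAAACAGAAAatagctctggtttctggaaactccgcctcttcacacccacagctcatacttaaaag
Rsad2: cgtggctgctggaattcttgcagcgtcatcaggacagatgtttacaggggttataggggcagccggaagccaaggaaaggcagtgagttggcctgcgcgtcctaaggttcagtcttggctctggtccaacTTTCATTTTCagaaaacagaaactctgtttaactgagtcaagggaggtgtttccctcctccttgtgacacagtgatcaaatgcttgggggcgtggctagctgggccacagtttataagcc
Tgtp1: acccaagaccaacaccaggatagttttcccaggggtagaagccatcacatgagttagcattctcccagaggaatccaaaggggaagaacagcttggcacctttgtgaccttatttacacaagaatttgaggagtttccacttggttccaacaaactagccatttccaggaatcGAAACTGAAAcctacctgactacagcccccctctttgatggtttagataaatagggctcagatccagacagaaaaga
Tgtp2: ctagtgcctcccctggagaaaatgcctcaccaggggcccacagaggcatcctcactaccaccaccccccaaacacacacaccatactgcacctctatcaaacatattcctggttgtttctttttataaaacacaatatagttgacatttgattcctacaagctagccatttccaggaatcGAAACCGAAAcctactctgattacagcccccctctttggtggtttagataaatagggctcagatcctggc
Oasl2: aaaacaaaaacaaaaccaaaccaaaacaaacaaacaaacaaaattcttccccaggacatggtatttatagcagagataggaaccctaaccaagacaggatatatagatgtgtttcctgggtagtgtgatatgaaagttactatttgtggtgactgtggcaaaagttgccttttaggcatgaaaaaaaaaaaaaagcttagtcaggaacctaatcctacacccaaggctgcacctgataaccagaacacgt

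In these windows Isg15 held 3 overlapping matches, which began 78, 72 and 66 bases before its start. Apol9a held 2 overlapping matches on the opposite strand, 59 and 53 bases before its start, and the near-identical window of Apol9b held the same pair 37 and 31 bases before its own. Tgtp1 and Tgtp2 held 1 match each, 77 and 70 bases before their starts. Rsad2 held 1 match on the opposite strand, 120 bases before its start. Oasl2 held none, nor did the windows before the starts of Ifi44 and Xaf1, which are not shown. This says only that these letters are not in these windows. Over windows of 300 bases (250 before the start and 50 after), GAAANNGAAA was found in 3.44% of 32851 RefSeq promoters. Among members with a promoter in the table, and counting any of a gene's starts, it was found in 3.58% of 9106 genes, in 10 of the 49 with a ratio of 0.58 or more (20.4%) and in 3 of the 49 with a ratio of -0.58 or less (6.12%). It was found in 20 of 42 antiviral members (47.6%), whether or not these differed, and in 9 of 10 GTPase members. A match is a description of the letters and was not tested as a binding site.

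Ifi44, an interferon-induced cytoplasmic protein gene, measured 1.26 FPKM in library 7 and 4.42 in library 8, a log2 ratio of 1.26. In the 2 other libraries it measured 0.140 (library 9) and 1.08 (library 10). Apol9a, of the mouse apolipoprotein L family (chr15:77403789-77411135, minus strand), measured 2.78 and 7.71 FPKM in libraries 7 and 8, a ratio of 1.20, and 0.430 and 2.47 in libraries 9 and 10. For both genes library 8 was the highest of the 4 and library 9 the lowest, with library 10 near the scramble level.

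The same order held for most of the other antiviral genes past 0.58. Oasl2, an oligoadenylate synthetase-like protein gene (chr5:114896936-114912234, plus strand), measured 3.46, 7.97, 1.01 and 2.80 FPKM in libraries 7, 8, 9 and 10, with a ratio of 1.01 for library 8 over library 7. Xaf1, whose product binds an inhibitor of apoptosis, measured 8.51, 17.3, 3.33 and 7.53 FPKM, a ratio of 0.94. Rtp4, an interferon-induced chaperone of membrane receptors, measured 5.80, 11.2, 2.22 and 4.42 FPKM, a ratio of 0.84. In each of these genes library 10, labelled as both siRNAs, lay below the scramble library, and only library 8 lay above it.

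Isg15, a ubiquitin-like modifier of proteins, measured 11.7, 19.6, 4.61 and 7.13 FPKM in libraries 7, 8, 9 and 10, a ratio of 0.70 for library 8 over library 7. Rsad2, the antiviral enzyme viperin, measured 1.93, 4.03, 0.454 and 1.43 FPKM, a ratio of 0.78. Mx2, of the dynamin-like antiviral GTPase family but classed as a pseudogene in the annotation, was weakly expressed. It measured 0.378, 1.42, 0.404 and 0.513 FPKM, a ratio of 0.81. Here library 9 was not lower than library 7. Apol9b measured 1.88, 4.17, 0.210 and 0.687 FPKM, a ratio of 0.84, and shares 36.7% of its stretches of 100 bases with Apol9a, so reads of these paralogs could have been split between them.

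Over the 49 antiviral members, library 8 was the highest of the 4 libraries in 40 genes (81.6%), against 26.2% of all members, and library 9 was the lowest in 38 (77.6%), against 33.5%. Among the GTPases library 8 was the highest in 12 of 13 and library 9 the lowest in 10 of 13. The members under 0.58 ranged down to -0.08, at Tdrd7. They included the abundant genes Ifitm3 (283 and 384 FPKM in libraries 7 and 8, ratio 0.44), Ifi27 (157 and 209, ratio 0.40) and Bst2 (74.9 and 98.8, ratio 0.40), and Ifit1, a sensor of foreign RNA (9.51 and 14.4, ratio 0.55). Ifit2, Ifit3 and Pml had ratios of 0.08, 0.10 and 0.02, and Ifitm2 and Samd9l of -0.05 each. Ratios thus ranged widely within the list. Among the members near 0, Ifit2 (54.4 and 57.4 FPKM) and Samd9l (65.1 and 62.8) share no exonic bases with another gene, whereas Ifitm2 (357 and 345) shares 40.9% with Gm45717 and Ifit3 shares 31.7% of its stretches of 100 bases with Ifit3b, so their share of the reads is uncertain.

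**Figure D2:**
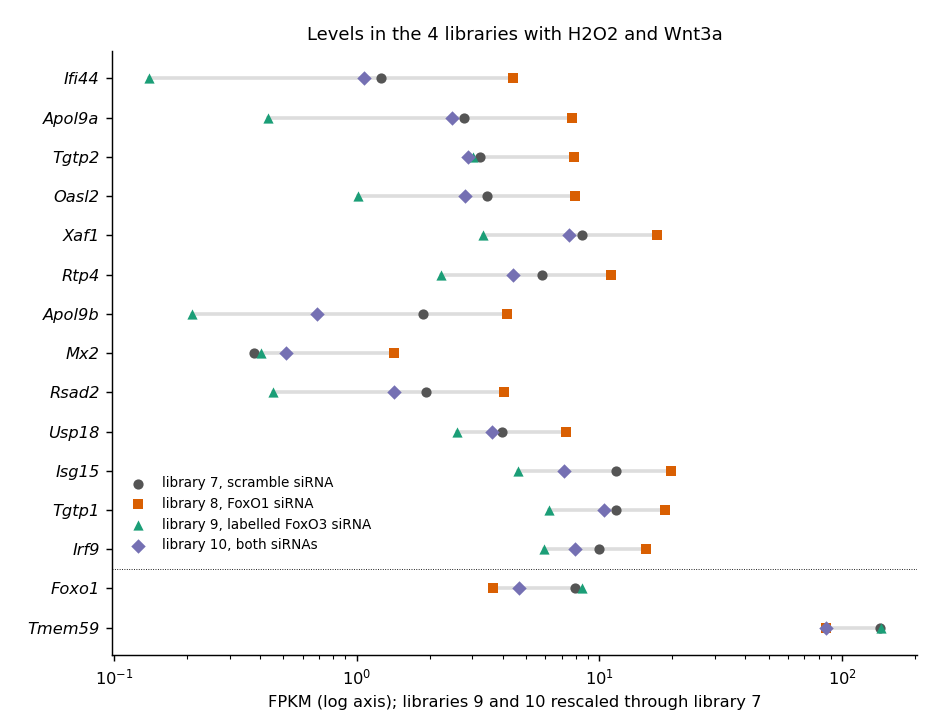
FPKM (log axis) in libraries 7 to 10 of the 13 antiviral, GTPase and interferon signalling genes with a ratio of 0.58 or more, above the dotted line, and of Foxo1 and Tmem59 below it. Library 8 (orange squares) is the highest for all 13 genes and library 9 (green triangles) is the lowest for all but Tgtp2 and Mx2, while Foxo1 and Tmem59 split into the libraries with and without FoxO1 siRNA.

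Of the GTPases, Tgtp2 (chr11:49057194-49064206, minus strand) measured 3.24, 7.90, 3.02 and 2.87 FPKM in libraries 7, 8, 9 and 10, a ratio of 1.07. Its neighbour Tgtp1 measured 11.8, 18.7, 6.20 and 10.5 FPKM, a ratio of 0.63. These 2 genes share 76.8% of the stretches of 100 bases of Tgtp2, so the split of reads between them is uncertain. Iigp1, which attacks the vacuole of Toxoplasma in mice, measured 6.25 and 8.98 FPKM in libraries 7 and 8 (ratio 0.46), and the guanylate-binding protein gene Gbp3 measured 14.1 and 20.4 (ratio 0.50). Gbp7, Gbp9 and Gbp4 had ratios of -0.03, 0.05 and 0.06.

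The parts of the pathway above these genes differed less. None of the 5 measured interferon and interleukin receptor genes passed 0.58: Ifnar1 measured 61.6 and 61.8 FPKM in libraries 7 and 8, Ifnar2 67.0 and 68.3, Ifngr1 55.3 and 55.0, Ifngr2 37.6 and 38.8 and Il10rb 33.7 and 37.3. The ligand genes Ifnb1, Ifng, Ifnk and Ifne were listed at 0 in both libraries. Of 19 members of the interferon signalling list, 2 were higher and 0 lower, with a median of 0.09. Usp18, which removes Isg15 and dampens the receptor, measured 3.98 and 7.28 FPKM (ratio 0.73). Irf9, the DNA-binding subunit of the interferon complex, measured 9.99 and 15.6 FPKM (ratio 0.60). Its partner Stat2 (5.24 and 6.18, ratio 0.20) stayed within 0.58, as did Irf7 (3.39 and 4.86, ratio 0.42), Jak1 (34.0 and 33.5) and Tyk2 (6.30 and 6.76). Sensors of nucleic acids, in whose list 0 of 15 members passed 0.58 either way, had a median of 0.15, with Tmem173 (STING) at 0.38 and Ddx58 (RIG-I) at 0.34. MHC class I and antigen processing genes, which interferons also raise, had 0 of 24 members past 0.58 and a median of 0.04. The interferon-inducible chemokine genes Cxcl10 (103 and 139 FPKM, ratio 0.43) and Ccl5 (11.5 and 16.5, ratio 0.48) were higher by less than 0.58.

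The known FoxO target genes did not differ as a group between libraries 8 and 7. Of 44 listed genes, 33 were members, 0 were higher by 0.58 or more, 1 was lower, and the median ratio was 0.01. In library 10 over library 9 their median was -0.12, with 1 higher and 0 lower by 0.58 or more. Library 9 was the highest of libraries 7 to 10 in 17 of the 33 (51.5%), against 28% of all members. The median of library 9 over library 7 was 0.13. Antioxidant targets were level: Sod2 (mitochondrial superoxide dismutase) measured 12.4 and 12.5 FPKM in libraries 7 and 8, Cat (catalase) 43.5 and 42.2, Prdx3 (a mitochondrial peroxiredoxin) 45.8 and 51.4, and Prdx5 115 and 110. Cell cycle inhibitor targets were level too, with Cdkn1b at 40.4 and 42.7 FPKM and Cdkn1a at 463 and 455. Among targets that promote apoptosis, Bcl2l11 measured 12.3 and 13.6 FPKM, Bbc3 19.4 and 18.2, and Pmaip1 175 and 174. In autophagy, Map1lc3b measured 72.8 and 71.5 FPKM and Gabarapl1 62.1 and 64.7.

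The largest negative ratios after that of Sepp1 were those of the stress-induced sestrin gene Sesn3 (17.0 and 13.3 FPKM, ratio -0.33), Lpin1, a phosphatidate phosphatase gene (15.9 and 12.9, ratio -0.28), and Irs2, an adaptor of the insulin receptor (8.82 and 7.65, ratio -0.18). Of these, Lpin1 and Irs2 were also lower in library 10 (14.7 and 7.88 FPKM) than in library 9 (20.4 and 9.87). The largest positive ratios were those of Pik3ip1, an inhibitor of PI3K (3.11 and 4.33, ratio 0.37), and Txnip, which binds thioredoxin (22.9 and 29.7, ratio 0.36). The glucose production genes Pck1 and G6pc and the binding protein gene Igfbp1, which are FoxO1 targets in liver, were listed at 0 in both libraries. Thus these targets could not be read in these cells.

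Sepp1, the gene of the selenium carrier selenoprotein P (chr15:3268547-3280508, plus strand), measured 55.6 FPKM in library 7 and 31.7 in library 8, a ratio of -0.79. It measured 40.4 FPKM in library 9 and 174 in library 10, so that it was 2.07 higher on the log2 scale in library 10 than in library 9. The 2 pairs thus went opposite ways, and library 10 stood apart from the other 3. Sepp1 is shown because it is the only FoxO target past 0.58 and 1 of its 3 RefSeq starts follows the forkhead core GTAAACA. The 250 bases before that start, chr15:3270727-3270976 (GRCm38.p6, plus strand, where RefSeq names the gene Selenop), carry the match in capitals, 24 bases before the start.
Sepp1: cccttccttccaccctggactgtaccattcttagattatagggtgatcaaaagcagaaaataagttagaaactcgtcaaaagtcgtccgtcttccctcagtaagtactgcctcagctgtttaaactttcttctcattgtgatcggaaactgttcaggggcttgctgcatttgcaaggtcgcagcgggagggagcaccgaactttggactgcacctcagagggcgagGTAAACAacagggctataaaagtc

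GTAAACA on either strand was found in 3.65% of the 32851 promoters, in 3% of the 9106 members with one, and in 6 of 27 known FoxO target members (22.2%). It was found in 2 of the 49 members with a ratio of -0.58 or less (4.08%), Sepp1 and Ankrd23. Among the 49 with a ratio of 0.58 or more it was found in 3 (6.12%), Gm15867, Il1rl1 and Rsad2. In the Rsad2 window shown above, GTAAACA lies on the opposite strand, 212 bases before the start, and is not in capitals. The windows before the other RefSeq starts of Sepp1 held the same match to GAAANNGAAA, 164 and 208 bases before those starts. Foxo1 and Tmem59 had no match to either motif in the 250 bases before their starts.

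The insulin, PI3K and AKT pathway, which acts on FoxO1 from above, had 0 of 40 members past 0.58 either way and a median of -0.05. Its largest differences were those of Sgk1, a kinase that also phosphorylates FoxO factors (13.2 and 9.65 FPKM, ratio -0.42), and Rptor, a subunit of mTOR complex 1 (12.5 and 10.3, ratio -0.26). In 15 of the 40 genes (37.5%) both libraries with FoxO1 siRNA lay below both without it, against 17% of all members, by small amounts that no replicate bounds.

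The genes of oxidative stress and Wnt signalling, which both libraries had received as stimuli, differed little. Genes driven by NRF2, the main transcription factor of the antioxidant response, had 0 of 26 members past 0.58 and a median of -0.08, and Txnrd1 was left out because it was listed at 0 in library 7. The other antioxidant enzymes had 0 of 20 and a median of 0.00. Wnt target genes had 0 of 14 and a median of -0.04, with Id2 (10.8 and 8.18 FPKM, ratio -0.36) and Rnf43 (1.97 and 1.44, ratio -0.29) lowest and Ctgf (224 and 270, ratio 0.27) highest, and core Wnt pathway genes had 0 of 23 and a median of -0.04. Genes of the p53 and DNA damage response (0 of 28), the unfolded protein response (0 of 18), the ATF4 stress response (0 of 22) and cholesterol synthesis (0 of 27) were also within 0.58 in library 8 over library 7. Among cell cycle genes 1 of 53 was past 0.58, E2f3, a transcription factor of S phase entry, at 23.8 and 14.7 FPKM (ratio -0.66), but library 10 (25.7) was not below library 9 (23.2).

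No member passed 0.58 in the remaining lists of processes. These were cytokines and chemokines (22 members, median -0.06), NF-kB subunits and feedback (18, -0.04), heat shock chaperones (13, 0.03), the BCL2 family (15, -0.03), cell cycle inhibitors (7, -0.03), immediate early genes (19, -0.04) and circadian clock genes (16, 0.03). They also included genes of matrix and the TGF-beta response (36, 0.02), glycolysis and hypoxia (24, -0.01), RNA interference machinery (12, -0.01) and housekeeping (16, -0.04). Of tubular injury markers 0 of 17 passed 0.58, with Havcr1 (KIM-1), a marker of damaged proximal tubule, at 11.7 and 17.4 FPKM in libraries 7 and 8 (ratio 0.53). Among the marker lists of cell types, medians were -0.04 for proximal tubule, -0.22 for the 2 podocyte markers measured, -0.07 for the 2 leukocyte markers and 0.01 for the 1 fibroblast marker.

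**Figure D3:**
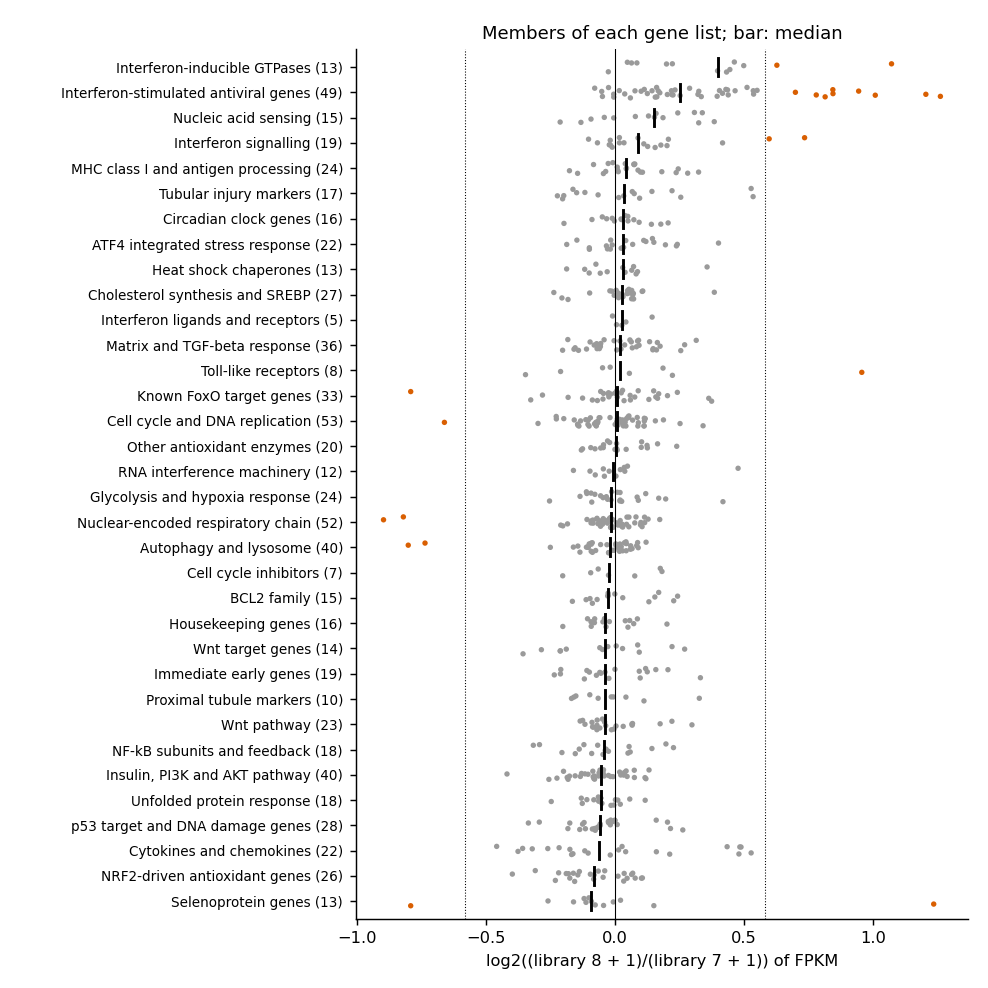
Log2 ratio of library 8 over library 7 for each member (points, orange where past 0.58 either way) of the gene lists with at least 5 members, ordered by median (black bars). Numbers of members are in parentheses, and the interferon-inducible GTPases (median 0.40) and antiviral genes (median 0.25) lie at the top while all the others have medians between -0.09 and 0.15.

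Beside Foxo1, the only gene of the ranking lower by 0.58 or more in both pairs was Tmem59, which encodes a Golgi and endosome membrane protein that promotes autophagy (chr4:107178399-107200996, plus strand). It measured 143 FPKM in library 7, 85.7 in library 8, 144 in library 9 and 85.5 in library 10. The ratios were -0.74 for library 8 over library 7 and -0.75 for library 10 over library 9, so the libraries with FoxO1 siRNA held the same lower level in both pairs. At this expression level such a ratio was rare, since 0.323% of the 930 members with a mean of 100 FPKM or more were past 0.58. In the authors' deposited table its p-value was 0.0004 and its q-value 0.591. Of its exonic bases 11.3% are shared with Tceanc2 on the opposite strand, which measured 5.10 and 4.91 FPKM.

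Other lower genes of the ranking held less well across the pairs. Cox6b2, a cytochrome c oxidase subunit gene best known from testis, measured 8.65 and 4.18 FPKM in libraries 7 and 8 (ratio -0.90) and 7.68 and 6.09 in libraries 9 and 10. Smim4, a small mitochondrial membrane protein gene, measured 15.9 and 8.58 FPKM (ratio -0.82) and 15.1 and 11.9 in the second pair. They were the only 2 of 52 nuclear-encoded respiratory chain genes past 0.58. Slc15a4, a lysosomal transporter of histidine and peptides, measured 20.7 and 11.5 FPKM (ratio -0.80) but 18.6 and 17.7 in the second pair. With Tmem59, it made up the 2 of 40 autophagy and lysosome genes past 0.58, where the median was -0.02.

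Rtn1, a reticulon of the endoplasmic reticulum, measured 11.3 and 6.17 FPKM in libraries 7 and 8 (ratio -0.78) and 8.44 and 7.56 in libraries 9 and 10. The SNARE-binding gene Stxbp6 measured 19.6 and 11.8 FPKM (ratio -0.69) and 15.4 and 13.4 in the second pair. Htra1, a secreted protease gene, had a ratio of -0.63 in the first pair but 0.37 in the second. The retinoid enzyme genes Adh7 (77.9 and 51.4 FPKM, ratio -0.59) and Dhrs3 (47.7 and 32.5, ratio -0.54) also went separate ways in the second pair, at -0.30 and 0.57. The remaining genes among the 20 lowest, S100a3, Sipa1l3, Ptprv, Mras, Ttc32, Appl2, Rap1gap and Blnk, had ratios between -0.64 and -0.54.

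Of the higher genes that are not interferon-stimulated, Taf9, a subunit of the general transcription factor TFIID, was first, at 17.5 and 44.9 FPKM (ratio 1.31). Libraries 9 and 10 held 43.8 and 51.1 FPKM, so the scramble library alone was low. Taf9 shares 73.8% of its exonic bases with Ak6, which measured 107 and 92.9 FPKM in libraries 7 and 8, so its share of the reads is uncertain. Gpr19, an orphan receptor gene, was likewise low in library 7 alone, at 3.55 FPKM against 6.97, 7.09 and 7.14 in libraries 8, 9 and 10. Selo, a mitochondrial pseudokinase gene, measured 6.37 and 16.3 FPKM (ratio 1.23), but 32.2 in library 9 and 6.66 in library 10, and shares 26.7% of its exonic bases with Tubgcp6 on the opposite strand. Selo and Sepp1 were the 2 of 13 selenoprotein and selenium handling genes past 0.58, 1 each way, and the median of that list was -0.09.

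Tlr6, a partner of Tlr2 in sensing bacterial lipopeptides, measured 4.53 and 9.72 FPKM in libraries 7 and 8 (ratio 0.96) and 5.06 and 5.84 in libraries 9 and 10, so library 8 alone was high. It was the only 1 of 8 measured Toll-like receptor and cofactor genes past 0.58, with Tlr2 at -0.21 and Tlr4 at -0.02. Il1rl1, the receptor of interleukin 33, measured 14.9 and 23.6 FPKM (ratio 0.63) and 9.65 and 15.1 in the second pair, higher with FoxO1 siRNA in both. Asb5, an ankyrin repeat protein gene, measured 5.42 and 9.43 FPKM (ratio 0.70) and 2.97 and 5.26 in the second pair. For Il1rl1 and Asb5, library 10 lay near the scramble level and library 9 below it. Telo2, which stabilizes kinases of the PI3K-related family, measured 6.86 and 12.1 FPKM (ratio 0.73), and Itfg2, a subunit of a lysosomal regulator of mTOR complex 1, measured 8.77 and 13.9 (ratio 0.61). Ptp4a1 (0.68), Ppm1j (0.66) and Ttc23 (0.65) completed the 20 highest. Ly6a, the only other gene of the ranking higher by 0.58 or more, measured 3.35 and 5.58 FPKM (ratio 0.60). In the second pair Ly6a measured 5.06 and 3.24 FPKM (ratio -0.51), so it was lower with FoxO1 siRNA there. Ptp4a1 shares 70.8% of its exonic bases with another entry of the same name on the same strand, so its share of the reads is uncertain.

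The second pair allowed a check on libraries that the first did not use. Over the members measured in it, library 10 over library 9 was 0.58 or more in 165 of 11872 (1.39%) and -0.58 or less in 158 (1.33%). Of the 123 higher members, 109 were measured in the second pair, and 23 of these (21.1%) were higher there too by 0.58 or more while 15 (13.8%) were lower. Of the 105 lower members, 95 were measured, and 18 (18.9%) were lower there too while 11 (11.6%) were higher. In the ranking, 7 of 21 higher genes (33.3%) were higher in both pairs, against 0.653% of the ranked genes in the second pair, and 1 went the other way. Of 15 lower genes, Foxo1 and Tmem59 (13.3%) were lower in both, against 0.495%, and Sepp1 went the other way. The shares over all members or all ranked genes take in genes of every level, and weak genes passed 0.58 more often. No share for genes of like level was computed, so the size of the agreement is uncertain.

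Of the 7 genes higher in both pairs, 5 are interferon-stimulated genes, and in all 7 library 9 was itself low. Apol9a, Xaf1, Oasl2, Rtp4 and Tgtp1 had ratios of 1.28, 0.98, 0.92, 0.75 and 0.67 for library 10 over library 9, and of -1.40, -1.13, -1.15, -1.08 and -0.83 for library 9 over library 7. Their ratios for library 10 over library 7 were -0.13, -0.16, -0.23, -0.33 and -0.15. Il1rl1 and Asb5 had ratios of -0.58 and -0.69 for library 9 over library 7, and of 0.02 and -0.04 for library 10 over library 7. The latter comparisons share library 7 with the first pair. Over all members, library 9 over library 7 was 0.58 or more in 1.35% and -0.58 or less in 1.88%. The antiviral list as a whole had a median of 0.27 for library 10 over library 9, with 8 members higher and 0 lower, of -0.32 for library 9 over library 7, with 0 higher and 12 lower, and of -0.08 for library 10 over library 7. In 14 of the 49 antiviral members (28.6%) both libraries with FoxO1 siRNA lay above both without it, against 15.6% of all members. Other lists that were level in the first pair also differed in the second. The ATF4 stress response list had 7 of 22 members higher and 0 lower in library 10 over library 9, with a median of 0.45, and 11 lower in library 9 over library 7, with a median of -0.54. The circadian clock list had 4 of 16 higher and 1 lower in library 10 over library 9, with a median of 0.38. Higher values in library 10 than in library 9 were thus not limited to the antiviral list.

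**Figure D4:**
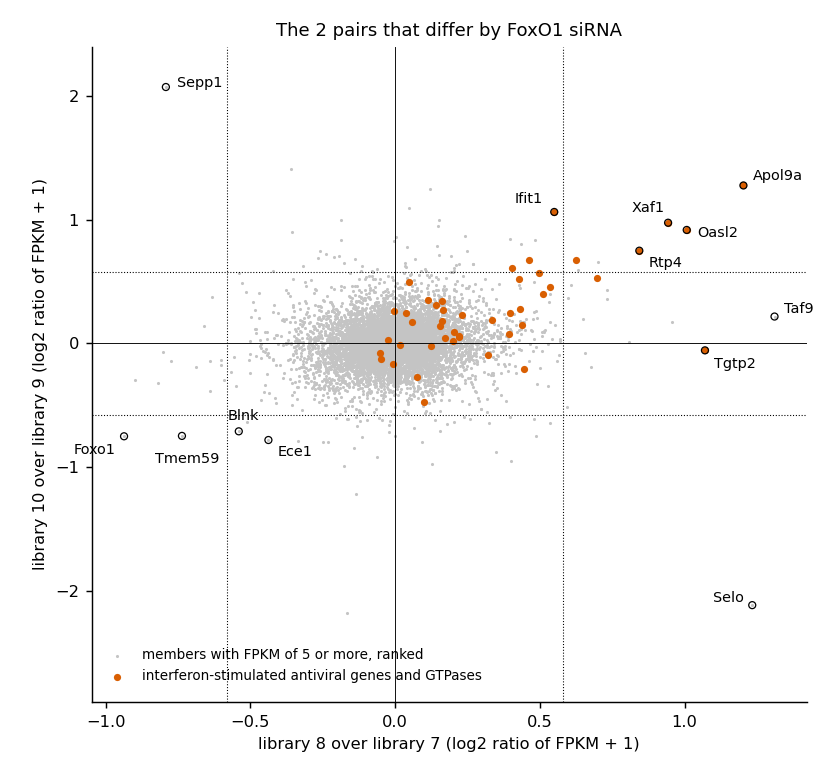
Log2 ratio of library 10 over library 9 (y axis) against that of library 8 over library 7 (x axis) for the ranked members measured in both pairs, which share no library, with dotted lines at 0.58. Foxo1 and Tmem59 are low in both pairs, Apol9a, Xaf1, Oasl2 and Rtp4 (orange) are high in both, and Sepp1 and Selo lie in opposite corners.

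Ranked by whichever of the 2 ratios was nearer to 0, among genes with both below 0, a rule set after values were seen, the 10 lowest genes were Foxo1, Tmem59, Blnk, Gad1os, Fkbp14, Ece1, Atp1b1, Zbtb20, Armcx3 and Plekha3. Blnk, an adaptor of immune receptor signalling, measured 10.7 and 7.03 FPKM in libraries 7 and 8 and 13.1 and 7.61 in libraries 9 and 10. Ece1, the endothelin-converting enzyme, measured 67.9 and 49.9 FPKM and 80.0 and 46.2. Atp1b1, the beta subunit of the sodium pump that drives tubular reabsorption, measured 17.8 and 13.1 FPKM and 23.8 and 17.3. That the higher value of each pair was the one without FoxO1 siRNA follows from the rule and is no result. The rule also favours genes in which both libraries with FoxO1 siRNA lay below both without it, as in these 3. That order is therefore no separate result, and for Atp1b1 library 10 lay close to library 7 (ratio -0.04).

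Without H2O2, values of libraries 3 (scramble siRNA) and 4 (siRNA to both factors) were at hand only for 1637 genes that the authors had chosen for differing both there and in library 10 over library 7. Of these, 248 were members, 46 of them past 0.58, and 2 of the 49 antiviral members were among them. Foxo1 and Tmem59 are not on that list and were not analysed here in those libraries. Sepp1 measured 26.3 FPKM in library 3 and 40.7 in library 4.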

How the data were processed

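FPKM values, with p-values and q-values of each pair of single libraries, are as the authors deposited them. Reads of 100 nt (per the labels) went through TopHat2, Cufflinks and Cuffdiff on build mm10, per the submitters' processing notes. The sources used here do not give their versions and settings, the strandedness or the annotation. The deposited p-values and q-values compare libraries, not conditions.

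Members, gene lists and comparisons were chosen with earlier results of these data known. Ratios used a pseudocount of 1 FPKM and sizes of 0.58 and 1, with no test, since each group has 1 library. Named were the FoxO family, the 20 highest and 20 lowest ratios of the ranking, and members of 40 lists, by size of ratio. Library 7 differed between tables by factors of 1.00217 and 1.00334, by which libraries 9 and 10 were rescaled, so levels across tables rest on library 7. Total counts are not given, so depth is unknown and no interval or floor was computed. Ratios of 2895 genes under 0.3 FPKM placed the depth of library 8 at about 0.883 of that of library 7, and FPKM summed to 510190 and 508824. The depth estimate is rough. It reads these ratios as ratios of whole fragments, and 46.8% of the genes lay within 0.03 on the log2 scale of a ratio of whole numbers up to 4. Coordinates and overlaps are from GENCODE M21 (GRCm38, the same as mm10), by gene ID. Scripts used Python 3.11.15, pandas 2.3.3, numpy 2.4.6 and matplotlib 3.10.9. The ratio and the counting were tried on simulated data with an assumed depth and no spread between cultures, which checks the arithmetic only. Alternatives were other pseudocounts, minimums and row filters, and centring.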

Additional observations from a re-analysis of the deposited data

Results flagged for a closer look

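In 2 genes of the ranking the pair of libraries 8 and 7 and the pair of libraries 10 and 9 went opposite ways by more than 0.58, and the difference was not tested. Selo was higher in library 8 than in library 7, by 1.23 on the log2 scale, while library 10 over library 9 was -2.12. Its highest level was in library 9, and 26.7% of its exonic bases are shared with Tubgcp6 on the opposite strand. Sepp1 was lower in library 8 than in library 7, at -0.79, while library 10 over library 9 was 2.07, with the highest level in library 10.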

How the results depend on the processing

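Among the settings tried, counts depended most on the pseudocount. With 0.1 FPKM, 103 members were higher and 84 lower by 1 or more, 294 and 238 were past 0.58, 103 of these went the same way in libraries 10 over 9 and 78 the opposite way, and the Foxo1 ratio was -1.09. With 5 FPKM these values were 5, 2, 22, 16, 7 and 4, and the Foxo1 ratio was -0.58. Members with 5 FPKM or more in at least 1 library gave 11, 5, 36, 32, 14 and 4. Leaving out small RNA, predicted, histone and mitochondrial genes and rows of several symbols gave 11, 4, 54, 45, 16 and 8. The main values were 27, 22, 123, 105, 41 and 26, and dropping the minimum, keeping the authors' status OK alone, or centring moved each of them by less than 1.5 times. The counts against libraries 10 over 9 were set under these alternatives after seeing the data. The antiviral median stayed between 0.16 and 0.34. Of 39 named genes past 0.58, 14 were still past it with 5 FPKM and 39 with 0.1 FPKM or centring, and none of 54 named genes changed sign under these. No paired analysis was possible because libraries 8 and 7 share fewer than 2 replicate numbers, and with 1 library a group no replicate could be left out. An additive fit over libraries 7 to 10, with 1 residual degree of freedom, was not run. Weak genes carry most of the counts, and depth is unknown.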
